A study of Mus musculus with 2 samples.

Results

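The genes described here are 8 subunits of the Polycomb repressive complexes, Ezh1, Ezh2, Eed, Suz12 and Jarid2 of PRC2 and Ring1, Rnf2 and Bmi1 of PRC1. They were taken as the probe sets whose platform annotation gives 1 of these symbols alone, which found 9 probe sets for the 8 genes, 2 of them for Eed, among 28944 probe sets and 19938 named genes. The RNA came from neural precursor cells of the Jcl:ICR mouse forebrain at E11.5 of development. One sample had received a control retrovirus and the other a retrovirus carrying HMGN1, a protein that binds nucleosomes. Both were grown with FGF2 and EGF, replated 3 days after infection and then held for 1 day without these growth factors. Each virus has 1 array, so no difference below has a replicate check or a test, and the share of cells that took up the virus is not known here. The comparison asks how extra HMGN1 alters gene expression at the start of differentiation.

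PRC2 places methyl groups on lysine 27 of histone H3, through Ezh1 or Ezh2, and needs Eed and Suz12 to be active. PRC1 attaches ubiquitin to histone H2A through Ring1 or Rnf2, which pair with Bmi1 or another PCGF protein. Both complexes keep developmental genes silent, and in forebrain precursors they are known for restraining cell cycle inhibitors and for the timed switch from making neurons to making glia.

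Bmi1 was the member that differed most, 23.2% higher in the HMGN1 virus sample, followed by Ezh2, 11.0% higher. Eed, on its brighter probe set, and Ring1 were lower, and Jarid2 was nearly the same on both. Ezh2, Eed and Ring1 lay inside the middle 95% of genes of their brightness, and Bmi1 lay outside it. None of the 8 members reached a log2 difference of 0.32 either way, the size used here to call a gene. That size was reached by 1.03% of the 11330 detected genes, so a count of 0 among 8 is near the background.

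The sequences just before the start sites of the 4 members at the extremes, Bmi1 and Ezh2 at the high end and Eed and Ring1 at the low end are printed to show which common promoter motifs they hold. They are the 150 bases upstream of the RefSeq start (GRCm38.p6), written 5′ to 3′ on the gene's strand. Capitals mark GC boxes (GGGCGG, a motif of Sp1-type factors) and CCAAT boxes (CCAAT, a motif of NF-Y), each on either strand, and the Eed stretch holds neither.

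Bmi1 (chr2:18676868-18677017, + strand): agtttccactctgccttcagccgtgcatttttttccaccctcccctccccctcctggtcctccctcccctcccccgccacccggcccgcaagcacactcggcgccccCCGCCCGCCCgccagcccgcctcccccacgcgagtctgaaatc

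Ezh2 (chr6:47595031-47595180, - strand): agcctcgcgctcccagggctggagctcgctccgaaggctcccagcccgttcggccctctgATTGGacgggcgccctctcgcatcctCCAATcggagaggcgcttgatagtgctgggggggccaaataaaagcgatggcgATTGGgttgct

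Eed (chr7:89980977-89981126, - strand): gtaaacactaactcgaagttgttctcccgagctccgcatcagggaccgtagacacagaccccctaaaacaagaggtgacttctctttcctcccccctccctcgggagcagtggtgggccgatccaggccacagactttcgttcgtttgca

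Ring1 (chr17:34024681-34024830, - strand): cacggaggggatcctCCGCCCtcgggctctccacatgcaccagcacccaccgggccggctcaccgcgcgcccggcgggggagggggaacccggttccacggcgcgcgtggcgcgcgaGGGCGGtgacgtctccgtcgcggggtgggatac

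The 8 members have 9 start sites in the RefSeq promoter table, 2 of them for Jarid2. In the full windows, from 250 bases before to 50 bases after each start, 6 of the 9 held a GC box, which 35.6% of 32817 windows of that length held. A CCAAT box was found in 5 of the 9, against 37.4% of all windows. The Ezh2 window held 3 CCAAT boxes and no GC box, whereas the Bmi1 window held 6 GC boxes, some of which overlap, and no CCAAT box. An E2F motif, searched as TTTCCCGC or TTTGGCGC on either strand, lay in the windows of Ezh2 and Suz12, and in 1.56% of all windows. Both matches fell outside the 150 bases upstream of the start, and the Suz12 stretch is not printed above. E2F factors are known to drive genes of the dividing cell. All 9 upstream stretches held more CpG than the median of 4 over all start sites, with 8 to 23 CpG in 150 bases. Eed had the fewest, and 65.4% of all start sites had fewer than Eed. Ring1 and Suz12 had the most, and 96.7% of all start sites had fewer than these. These matches describe letters only, and the arrays carry no measure of what binds there.

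The array values are intensities, the brightness of a probe set on a linear scale. A difference is HMGN1 virus minus control virus on the scale log2(intensity + 16), which understates the change of dim genes. Intensities of different probe sets depend on their probes, so levels are not compared between genes. A gene counted as detected at a mean intensity of at least 86.0, the level under which 95% of the probe sets for olfactory receptors lay, since precursor cells make little use of these receptors. As a measure of scatter, detected probe sets of 1 gene differed among themselves with an SD of 0.0891 over 683 genes, and the differences of all detected genes had an SD of 0.111 around a median of 0.027. Some probe sets of 1 gene repeat each other's values exactly, as for Pcna and Pgk1. Such repeats add no spread, so they lower the SD between probe sets and raise multiples of it. Neither SD covers variation between cultures.

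Among the core subunits of PRC2, Ezh2, the main methyltransferase of dividing cells, had intensities of 1588 (control virus) and 1764 (HMGN1 virus). The log2 difference was 0.15, or 1.11-fold, which is 1.68 times the SD between probe sets. A higher difference was seen for 10.7% of detected genes. Ezh1, the related methyltransferase that is better known from cells that have stopped dividing, measured 150 and 160, a log2 difference of 0.088. Both methyltransferases were therefore slightly higher in the HMGN1 virus sample, and their differences were 0.062 apart, less than the scatter between probe sets.

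Suz12, the subunit that holds the PRC2 core together, measured 848 and 878, a log2 difference of 0.049. Eed, which binds methylated lysine 27 and stimulates the enzyme, has a pair of probe sets that went opposite ways. The brighter one, annotated with the RefSeq transcript, measured 169 and 154, a log2 difference of -0.12. The other is annotated with a single cDNA and lay under the detection floor at 33.5 and 39.1, a log2 difference of 0.15. The sign of Eed therefore depends on the probe set, but a value under the floor cannot be told from background. Averaging the pair mixes the dim probe set with the detected one, which gives hardly any difference. Jarid2, an accessory subunit that helps bring PRC2 to its targets, measured 758 and 762, a log2 difference of 0.0070. Its sign turned under quantile normalization, centring, and removal of the intensity or gene span trend (-0.0064 to -0.045).

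**Figure D1:**
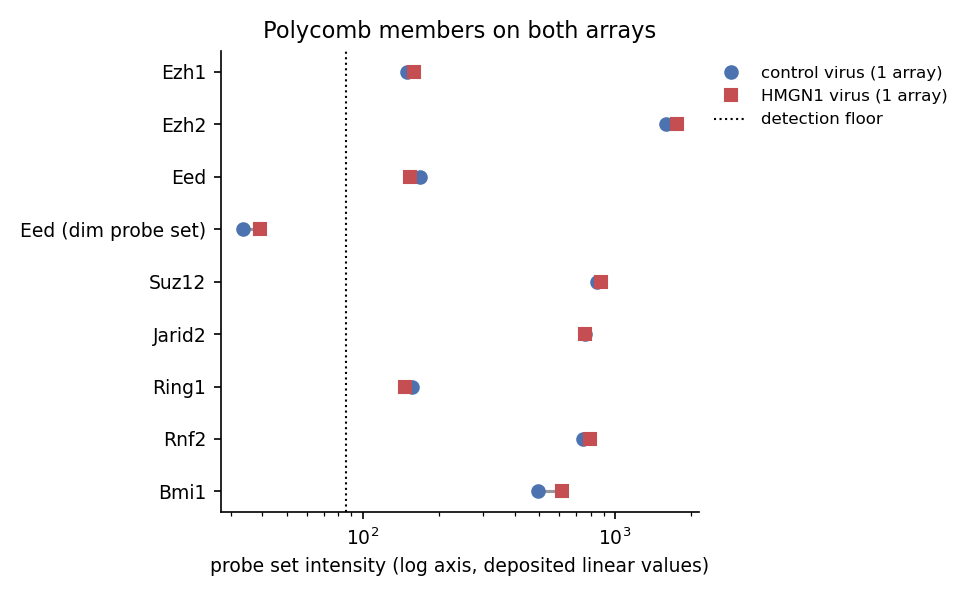
Deposited intensity of each member probe set (log axis) on the control virus array (circles) and the HMGN1 virus array (squares), with the detection floor of 86.0 dotted. Bmi1 shows the widest gap, from 496 to 615, Eed's brighter probe set and Ring1 lie lower with the HMGN1 virus, and the dim Eed probe set is the only one under the floor.

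In PRC1 the ubiquitin ligases split. Rnf2, also called Ring1B and the main ligase in embryonic cells, measured 744 and 796, a log2 difference of 0.096. Ring1, its paralogue, measured 156 and 147, a log2 difference of -0.082. Each difference is about the size of the SD between probe sets, and they lay 0.18 apart, 1.41 times the SD of a difference between 2 such values. Bmi1, the PCGF subunit of canonical PRC1 that is known for sustaining the renewal of neural stem cells, measured 496 and 615. Its log2 difference was 0.30, or 1.23-fold (1.24-fold without the offset), 3.38 times the SD between probe sets. Only 151 of the 11330 detected genes, 1.33%, differed by more in either direction. Bmi1 has a single probe set, so its value has no second measurement on these arrays.

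**Figure D2:**
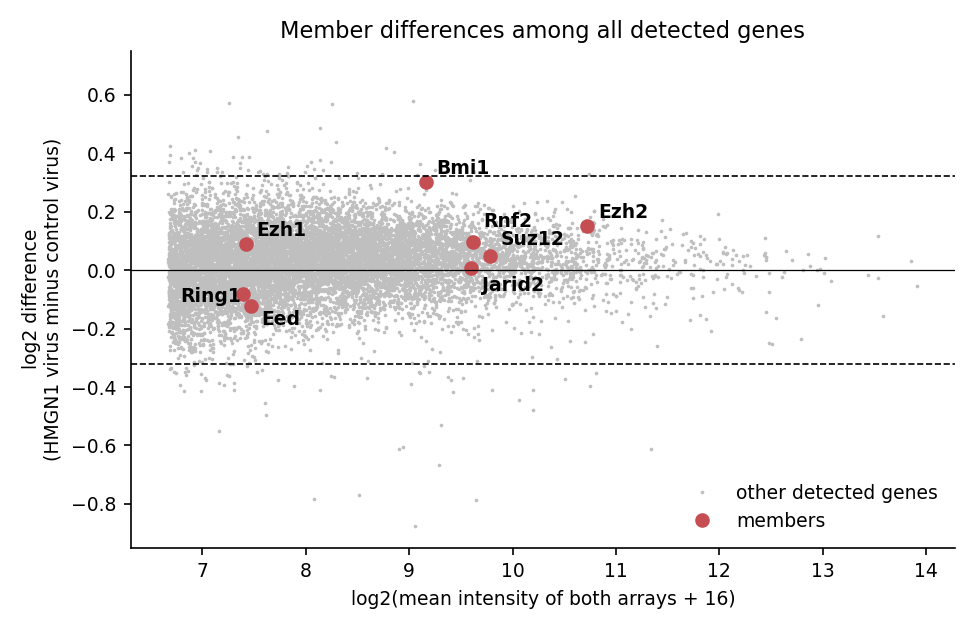
Log2 difference (HMGN1 virus minus control virus) against log2(mean intensity + 16) for all 11330 detected genes (grey points) and the 8 members (red points, named), with dashed lines at a log2 difference of 0.32 either way. Bmi1 (0.30) lies just inside the upper line at the edge of the genes of its brightness, and the other 7 members lie within the bulk, between -0.12 and 0.15.

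Scatter was a little wider among dim genes, so the members are best read beside genes of their own brightness. Ezh1, Eed and Ring1 fell in bin 2 of 4 when detected genes were split evenly by mean intensity, where 95% of genes lay between -0.20 and 0.25. The other 5 members fell in the brightest bin, where 95% of genes lay between -0.18 and 0.20. Bmi1 was outside this range, and Ezh2, Rnf2, Suz12, Jarid2, Ezh1, Eed and Ring1 were inside theirs.

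Counted by direction alone, 6 of the 8 members were higher and 2 lower in the HMGN1 virus sample. Of all detected genes 60.1% were higher and 38.4% lower, the others having the same value in both columns, so the members' split is close to that background. With the intensity trend removed, 50.2% of detected genes were higher and 49.8% lower, and the members were 5 and 3. The members' median difference was 0.069 and that of all detected genes 0.027. At 1.1-fold, a smaller size, 2 members passed, Bmi1 and Ezh2, against 20.4% of detected genes.

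The other subunits of these complexes were read from a list that adds 36 genes to the 8 members. Of these, 34 were analysed here and 31 were detected, with 18 higher, 13 lower and a median of 0.033. None reached a log2 difference of 0.32, a size that 1.03% of all detected genes reached. The split over all detected genes was 60.1% higher and 38.4% lower, so these counts are near the background. In the PRC2 core, the histone-binding proteins Rbbp4 (2244 and 2304, 0.038) and Rbbp7 (497 and 491, -0.016) were close to their control values. A second probe set of Rbbp7, nearly as bright, gave 0.20, so its sign too depends on the probe set. Among the accessory subunits, which steer PRC2 to CpG-rich DNA or to other complexes, Aebp2 differed by 0.14, Lcor by 0.026, Mtf2 by 0.023, Epop by -0.066 and Phf1 by -0.20. Phf1, at 156 and 133, was the lowest detected Polycomb subunit when each gene was read from its brightest probe set. Phf19 and Ezhip, an inhibitor of the enzyme, lay under the floor.

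The PCGF proteins, 1 of which sits in every PRC1 complex and sets its type, were all higher. Beside Bmi1, also known as Pcgf4, the log2 differences were 0.14 for Pcgf3 (529 and 582), 0.11 for Pcgf1, 0.066 for Pcgf5, 0.050 for Pcgf6 and 0.033 for Pcgf2. Pcgf2, the closest relative of Bmi1, measured 253 and 259, which leaves the Bmi1 difference 0.27 above it, 2.13 times that SD. All 6 stayed higher after centring, and 5 did with the intensity trend removed. Of all detected genes 60.1% were higher as reported, 50% after centring and 50.2% with the intensity trend removed. Bmi1 was the only PCGF gene outside the middle 95% of all detected genes, which ran from -0.21 to 0.23.

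The 3 CBX proteins analysed here, which read methylated lysine 27 in canonical PRC1, were lower or level. Cbx2 measured 413 and 370, a log2 difference of -0.15, while Cbx7 and Cbx8 differed by -0.014 and -0.018. After quantile normalization only 1 of these 3 was lower. The polyhomeotic subunits, which cluster PRC1 complexes, were Phc1 at -0.029, Phc2 at -0.086 and Phc3 at 0.054 on their brightest probe sets. A second detected Phc3 probe set gave -0.010, so the sign of Phc3 depends on the probe set. Scmh1, a partner of the polyhomeotic subunits, differed by 0.064, and Scml2 lay under the floor at 48.0 and 63.9. Partners of variant PRC1, the forms without a CBX protein, also went both ways, 7 higher and 5 lower of 12. That is near the split of all detected genes, 60.1% higher and 38.4% lower. Fbrsl1 (0.17), L3mbtl2 (0.097) and Auts2 (0.081) were highest. Rybp (-0.13), Yaf2 (-0.095) and Bcorl1 (-0.026) were lowest. Rybp and Yaf2 are the related subunits that take the place of CBX proteins, and a second Rybp probe set gave -0.22.

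**Figure D3:**
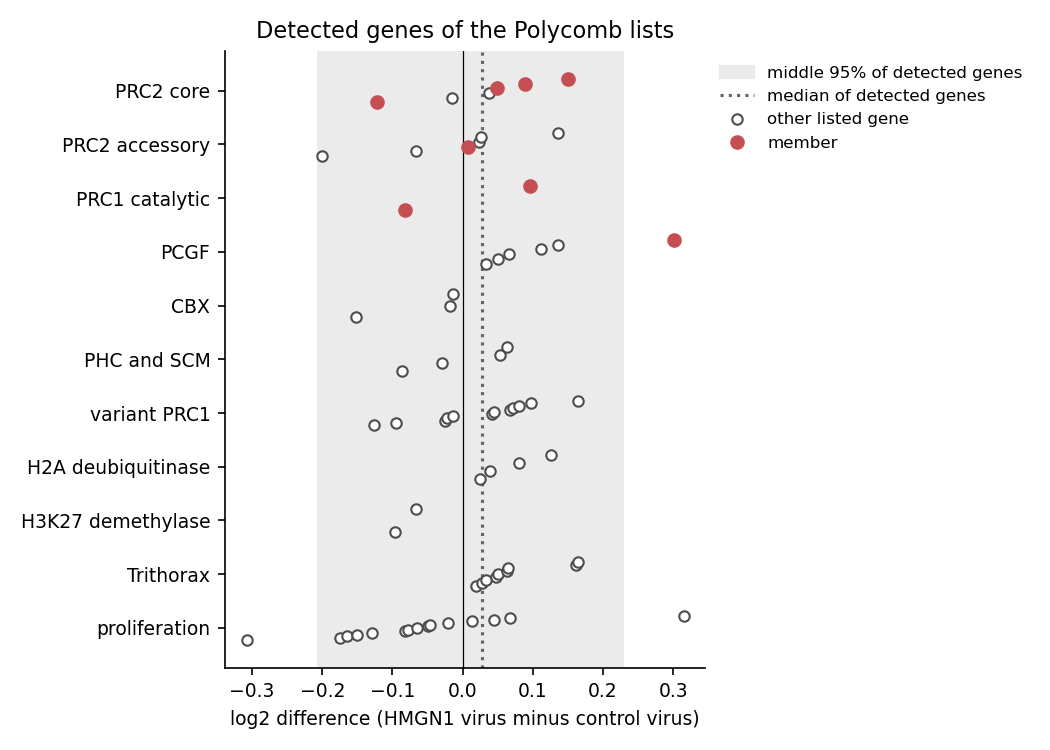
Log2 differences of the detected genes in the lists of subunits, opposing enzymes and proliferation genes (members red, other listed genes open circles), with the middle 95% of all detected genes shaded (-0.21 to 0.23) and their median dotted (0.027). Bmi1 among the Polycomb lists and Ccne2 and Tyms among the proliferation genes are the plotted points outside the shaded range. Polycomb target lists are not plotted.

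Enzymes that act against Polycomb marks were read from further lists. Of all detected genes 60.1% were higher and 38.4% lower. The share higher was 50% after centring and 50.2% with either the intensity or the gene span trend removed. The demethylases of lysine 27 were both lower, Kdm6a at 609 and 569 (-0.097) and Kdm6b at 781 and 745 (-0.067). The deubiquitinase that removes the PRC1 mark was higher in all 4 of its listed subunits, Asxl3 (0.13), Bap1, the enzyme itself (0.081), Asxl1 (0.039) and Asxl2 (0.025), but centring left 3 of 4 higher and removal of the gene span trend 2 of 4. The Trithorax group, whose complexes methylate lysine 4 of H3 and oppose Polycomb silencing, had 9 detected genes, all higher on their brightest probe sets. Of these, 8 stayed higher after centring, 7 without the gene span trend and 6 without the intensity trend. Ash2l (571 and 642, 0.17), Dpy30 (0.16) and Kmt2d (0.064) were highest, and Wdr5 (0.033), Rbbp5 (0.028) and Men1 (0.019) lowest. Ash2l and Dpy30 are shared core subunits of these complexes, and so are Wdr5 and Rbbp5, which were among the lowest. A second detected Kmt2d probe set gave -0.013, so the sign of Kmt2d depends on the probe set. None of these genes reached a log2 difference of 0.32, which 1.03% of all detected genes did.

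Of the genes known to be held down by Polycomb in neural precursors, 4 were analysed here and 2 were detected. Cdkn2a, the cell cycle inhibitor locus that Bmi1 is known to repress, measured 83.5 and 95.7, a log2 difference of 0.17. Its control virus value lay under the floor and its mean, 89.6, just above, so its difference cannot be told from background. Fezf2, a factor of deep-layer cortical neurons, measured 185 and 200 (0.10). Cdkn2b (69.8 and 67.5) and the proneural gene Neurog1 (73.0 and 74.0) lay under the floor. Of 29 developmental genes that Polycomb keeps silent outside their own tissues, mostly Hox genes, 26 lay under the floor on these arrays. The 3 detected were Hoxb3 (135 and 138, 0.031), Hoxb9 (99.1 and 92.8, -0.080) and Hoxb1 (113 and 93.1, -0.24). At values this close to the floor a small change cannot be told from background.

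Genes of the dividing cell are given beside the members because Ezh2 is known to be used most by cycling cells. Of 15 detected proliferation genes 4 were higher and 11 lower, with a median of -0.065. Among all detected genes 60.1% were higher and 38.4% lower. Any part of proliferation in the Ezh2 and Bmi1 differences was not tested. Ccne2, a cyclin of S-phase entry (-0.31), E2f2 (-0.17) and the mitotic kinase Plk1 (-0.17) were lowest. The highest were Tyms (0.315), Mcm2 (0.067) and Mcm6 (0.044). No gene of this list reached the calling size, 0.322 to 3 digits, which 1.03% of all detected genes reached. In RNA from a whole culture, fewer cells of a type and less RNA per cell cannot be told apart.

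The label of neural precursor cells was checked on marker lists. All 10 precursor markers were detected, among them Sox2 and Fabp7, with summed intensities of 24746 and 24528. All 8 neuron markers (7913 and 8231), 6 of 7 astrocyte markers (3776 and 4146) and all 7 oligodendrocyte lineage markers analysed (5917 and 6037) were also detected. Gfap, of astrocytes, was among the genes that differed most (406 and 615, 0.58). The neuron and astrocyte sums were higher in the HMGN1 virus sample, as Bmi1 and Ezh2 were. The oligodendrocyte sum was only slightly higher, with Gpr17 (686 and 869) the highest of its markers. A sum is weighted towards its bright probe sets. The part of these cell types in the Bmi1 and Ezh2 differences was not tested. The markers within these lists went both ways, 5 higher and 3 lower among neuron markers (Tubb3 at -0.17, Rbfox3 at -0.15), 5 and 1 among detected astrocyte markers, and 4 and 3 among oligodendrocyte lineage markers (Olig2 at -0.16). Of the precursor markers 4 were higher and 6 lower, with Sox1 lowest (601 and 467, -0.35). Of markers from outside the neural lineage, 0 of 6 endothelial (355 and 322), 1 of 7 microglial (389 and 393), 4 of 6 mesenchymal (644 and 636) and 1 of 2 erythroid genes (342 and 387) were detected, with the summed intensities in brackets. The detected erythroid gene was Tfrc (295 and 335), while Alas2 (47.4 and 52.1) lay under the floor. Hmgn1 itself measured 230 and 348 (0.57), higher in the sample that received it.

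The genes next to the members on the chromosome were read to see whether a difference was shared along the genome. RefSeq gives 16 protein-coding neighbours, the nearest on each side, of which 12 were analysed here and 8 were detected. Of the 8, 5 were higher, 3 lower and 0 at the calling size, against 60.1%, 38.4% and 1.03% of all detected genes. Commd3, the gene just before Bmi1, measured 666 and 592, a log2 difference of -0.17, opposite in sign to Bmi1. Cul1 beside Ezh2 (566 and 642, 0.18) and Crlf3 beside Suz12 (146 and 181, 0.28) were higher. These 3 were named after their values were seen.

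The member values were recomputed under 6 other settings of scaling, trend removal and offset. Bmi1 ran from 0.26 to 0.31, Ezh2 from 0.10 to 0.16, Rnf2 from 0.055 to 0.098 and Ezh1 from 0.046 to 0.097. Ring1 stayed between -0.11 and -0.064, and the brighter Eed probe set between -0.16 and -0.096. Suz12 ran from 0.0047 to 0.050, and Jarid2 alone changed sign.

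**Figure D4:**
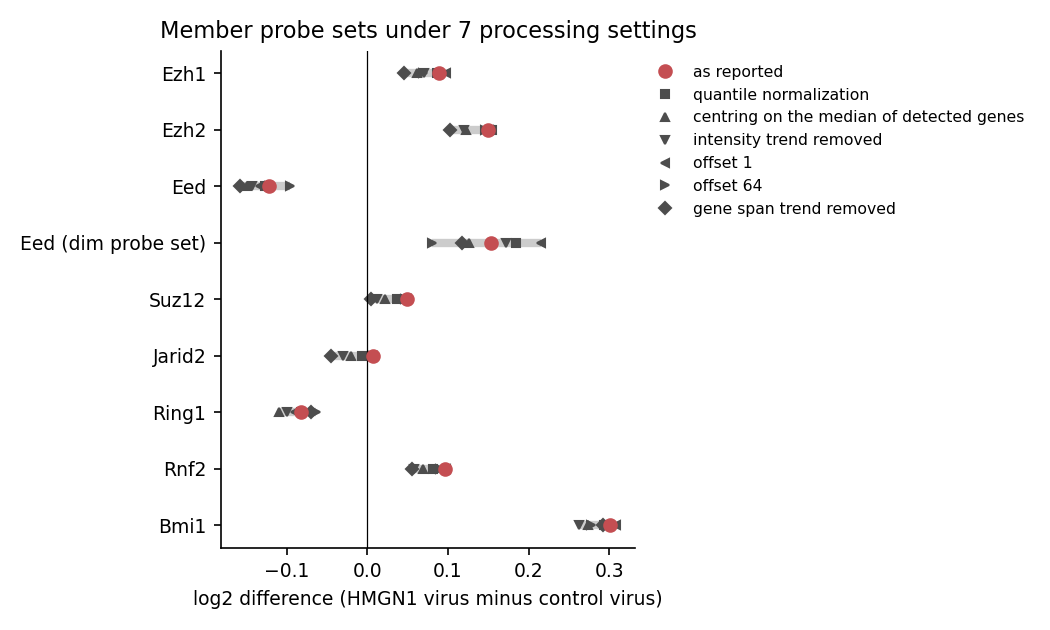
Log2 difference of each member probe set as reported (red) and under 6 other settings (grey markers), with the range as a grey bar. Bmi1 is highest under every setting shown (0.26 to 0.31), and Jarid2 is the probe set whose range crosses 0 (-0.045 to 0.0071).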

How the data were processed

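Per the labels' protocols, total RNA was labelled with biotin using a GeneChip kit for whole transcripts, with 1 array per virus. The authors deposited 1 intensity per probe set on a linear scale, while their background correction, normalization and probe summary are not given in the sources used here. No genome build is named for the arrays. By GEO's annotation of the platform, 21789 probe sets had 1 gene symbol, 1621 several and 5534 none listed, and 21698 matched the RefSeq table of GRCm38.p6 by gene number. Each gene was read from the probe set with the highest mean intensity. Nothing further was normalized. Python 3.11.15 with pandas 2.3.3 and statsmodels 0.14.6 was used, and the code was tested on simulated data.

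With 1 array per group no test was possible. A gene was called at a log2 difference of at least 0.32 either way. The number of arrays limits the precision. Genes named were all members, Hmgn1, every gene of the PRC2, PCGF, CBX, polyhomeotic, deubiquitinase and demethylase lists and of the neural Polycomb targets, and the 3 highest and 3 lowest detected genes of the longer lists. Others were named after their values were seen. The members and lists were chosen with earlier results of these data known. Alternatives were quantile normalization, centring, loess removal of the intensity trend (span 0.3), offsets of 1 and 64, other floors, mean probe sets and other sizes. Removal of the gene span trend, span being the distance from a gene's start to its end, was added after seeing the data.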

Additional observations from a re-analysis of the deposited data

How the results depend on the processing

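No member reached a log2 difference of 0.32 under any scaling, offset, filter or summary tried, and 2 passed when the size was 1.1-fold, which acts by construction. The number of members lower was 2 as reported, 1 with the mean of probe sets, through Eed, and 3 under quantile normalization, centring and removal of the intensity or gene span trend, through Jarid2. The members' median stayed between 0.025 and 0.073. The median of the other Polycomb subunits, 0.033, turned to -0.0048 with the intensity trend removed and to -0.0079 with the gene span trend removed, and the cause was not tested. Median centring shifts every gene by 0.027. No paired analysis was possible because there is 1 array per virus, and for the same reason no replicate could be left out. Low signal limits the dim Eed probe set, Cdkn2a and the silenced targets.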
